A study of Saccharomyces cerevisiae with 9 samples.

Results

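The genes described here are 37 yeast genes that drive and time the cell division cycle: the G1 and B-type cyclins, the cyclin-dependent kinase Cdc28 with its inhibitor Sic1 and the repressor Whi5, the transcription factors that switch cell cycle genes on and off, the proteins that license and start DNA replication, 2 mitotic regulators and 3 genes of DNA synthesis. They were taken as a fixed list of gene names, chosen with earlier results of these data known. Each was read by the brightest probe set annotated to that gene alone. All 37 were found among the 5449 yeast genes of the array, each with 1 probe set not shared with another gene, and all 37 lay above the background limit. RNA came from 3 recombinant strains of the budding yeast Saccharomyces cerevisiae, with 3 arrays per strain. REF is the reference strain, D12 carries the D12-desaturase gene of the fungus Mucor rouxii, and D126 carries both the D12- and the D6-desaturase genes of that fungus. Every culture was a chemostat limited by glucose, diluted at 0.1 per h and sampled at steady state after at least 5 residence times. The parent strain, the mating type, the promoters of the desaturase genes and what the reference strain carries in their place were not given.

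Yeast commits to division late in G1, when the cyclin Cln3 with Cdc28 relieves the repressor Whi5 from SBF (Swi4 with Swi6), and a wave of transcription by SBF and MBF (Mbp1 with Swi6) makes the cyclins Cln1, Cln2, Clb5 and Clb6 and the enzymes of DNA replication. Cdc6 loads the ring-shaped Mcm helicase on replication origins when kinase activity is low, between mitosis and G1. Later the forkhead factors with Mcm1 and Ndd1 switch on the CLB2 cluster, whose products include the mitotic cyclins Clb1 and Clb2, the polo kinase Cdc5 and the factor Swi5, and Swi5 then turns on genes at the exit from mitosis. A cell population in steady state in a chemostat grows at the dilution rate, so the strains shared the same nominal growth rate.

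Levels are on the authors' normalized log2 scale, and each log2 change between strains is given with its standard error (SE). A gene was called when its adjusted p in a limma fit over all 5449 genes was under 0.05. The median within-strain SD of the 37 genes was 0.055, against 0.060 for all genes. D12 replicate 3 was the D12 array farthest from the other D12 arrays for 19 of the 37 genes and for 49.1% of all genes. In D126, replicate 1 was the farthest array for 18 of the 37 genes and for 59.8% of all genes. Nothing in the labels says that the 3 arrays of a strain came from separate cultures, so p-values measure the spread between these arrays, which may be technical. The array median over all genes lay between 10.94 and 10.99 in the 9 arrays.

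The first question was how the genes differed between the strain with both desaturases and the reference strain. In D126, 11 of the 37 genes rose relative to REF and 0 fell: CLN1, CLN2, CLN3, PCL1, PCL9, CLB1, CLB2, SWI5, SFG1, CDC6 and RNR1. This is 29.7% of the genes on the higher side, against 8.59% of all 5449 genes called higher and 12.9% called lower in the same comparison (21.5% in either direction). The called changes ran from 0.21 to 0.59 on the log2 scale, or from 15.4% to 50.4% more signal. The median over the 37 genes was 0.09, and over all genes it was -0.0034. The 3 D126 values lay above the 3 REF values for 20 of the 37 genes (54.1%), where 22.2% of all genes did so, and below them for 1, FKH2, where 25.7% of all genes did. With array weights 22 of the 37 were called, all of them higher, where 21.7% of all genes were called higher. In bulk RNA a larger share of cells in a cell cycle phase and more RNA per cell in that phase cannot be told apart.

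**Figure D1:**
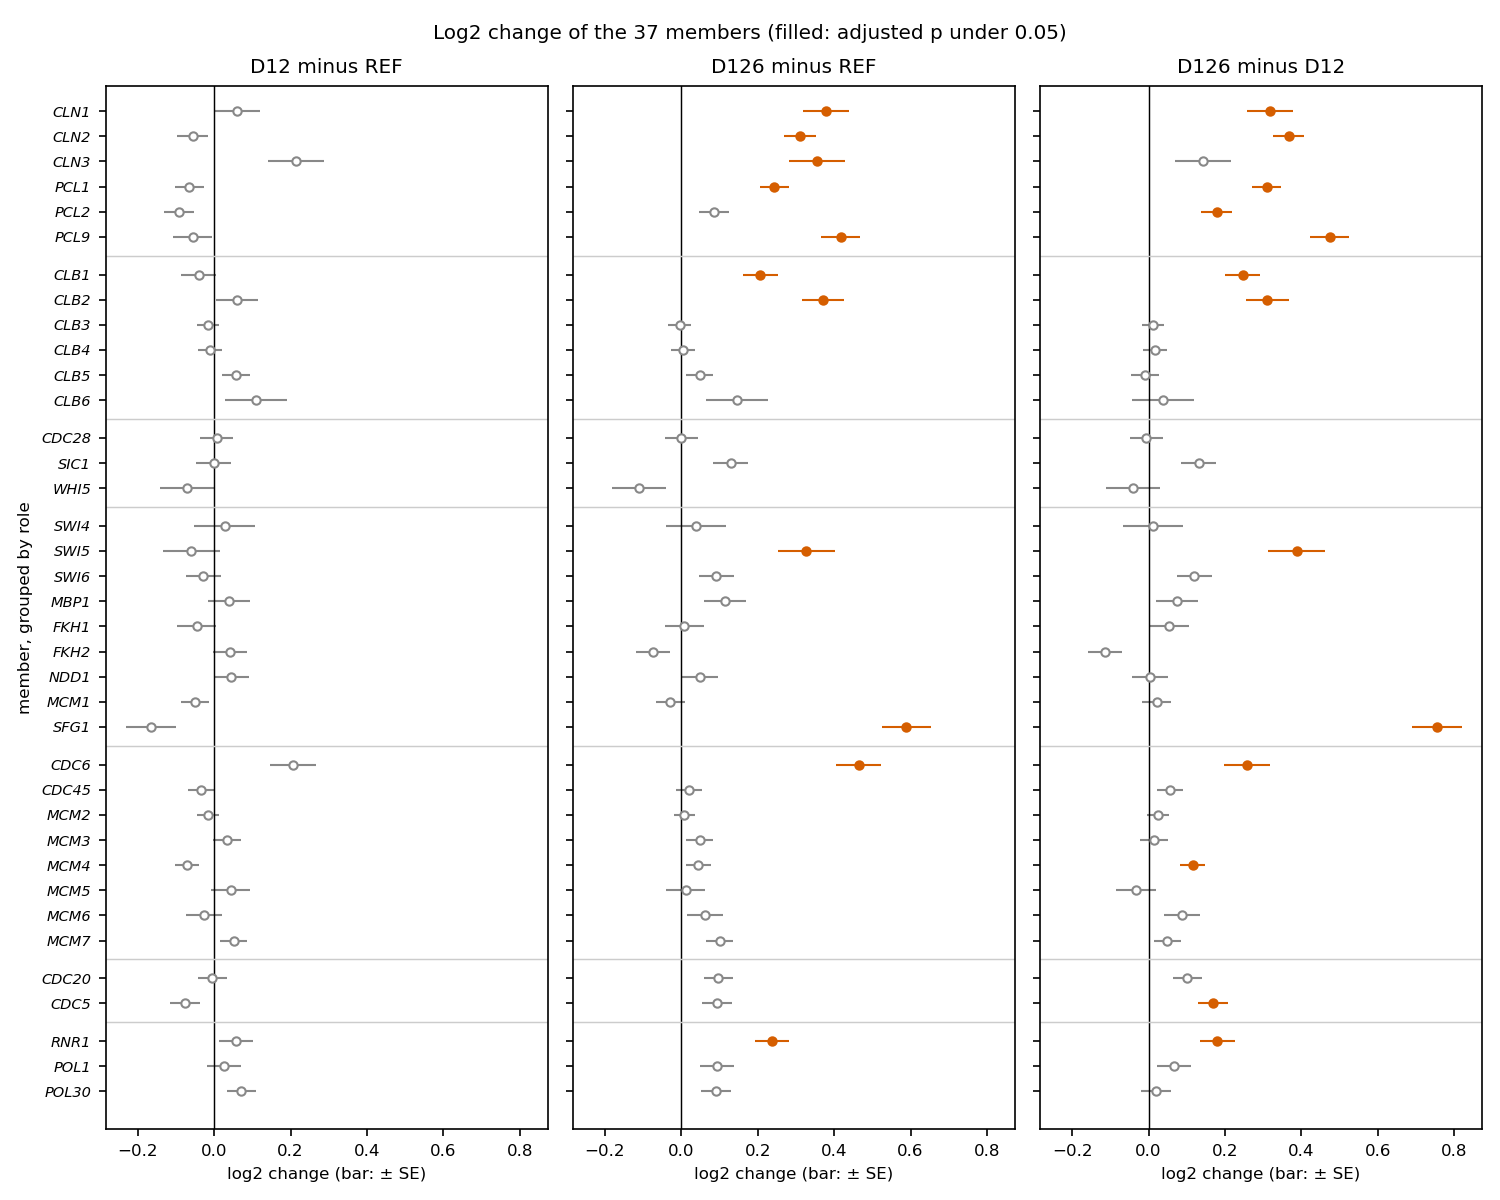
Log2 change of each of the 37 genes (horizontal axis, point) with its SE (bar) in the 3 comparisons, ordered by role from the G1 cyclins at the top to the DNA synthesis genes at the bottom. Filled points had an adjusted p under 0.05: 0 in D12 minus REF, 11 in D126 minus REF and 13 in D126 minus D12, all of them to the right of 0.

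The G1 cyclins moved most as a group. Of the 6 measured, 5 rose in D126 against REF with a median of 0.33, and 5 rose against D12 with a median of 0.31. That is 83.3% in each, where 8.59% and 7.32% of all genes were called higher. The D126 values lay above both other strains for all 6, where 22.2% of all genes lay above REF and 14.7% above D12. The 2 comparisons share the D126 arrays and are not independent of each other.

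CLN1 encodes a G1 cyclin made by the SBF wave. It measured 10.33, 10.11 and 10.14 in REF, 10.25, 10.19 and 10.32 in D12, and 10.58, 10.54 and 10.60 in D126. Every D126 array was thus above every other array, while REF and D12 overlapped. The log2 change from REF was 0.38 (SE 0.06, adjusted p = 0.00261), a 30.0% higher level, and the change from D12 was 0.32 (SE 0.06, adjusted p = 0.00622).

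CLN2 encodes the close relative of Cln1 and measured 10.60, 10.56 and 10.64 in REF, 10.52, 10.52 and 10.59 in D12, and 10.98, 10.86 and 10.89 in D126. The D126 arrays were again the highest without overlap. CLN2 rose by 0.31 over REF (SE 0.04, adjusted p = 0.00113) and by 0.37 over D12 (SE 0.04, adjusted p = 0.000478).

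CLN3 encodes the most upstream G1 cyclin. Its values were 10.57, 10.28 and 10.30 in REF, 10.63, 10.57 and 10.59 in D12, and 10.80, 10.72 and 10.70 in D126. The REF arrays were uneven, with replicate 1 at the level of D12, and D12 lay between the other strains. The change from REF was 0.36 (SE 0.07, adjusted p = 0.00933). Against D12 it was 0.14 (SE 0.07, adjusted p = 0.194), which did not pass the test; without REF replicate 1 the adjusted p of that difference was 0.0432, and over all alternatives it ran from 0.0432 to 0.409.

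The Pcl cyclins work with another kinase, Pho85, and PCL1 and PCL2 are transcribed in late G1. PCL1 measured 10.60, 10.52 and 10.58 in REF, 10.53, 10.50 and 10.47 in D12, and 10.85, 10.75 and 10.83 in D126, with no overlap between D126 and either other strain. It rose by 0.24 over REF (SE 0.04, adjusted p = 0.00237) and by 0.31 over D12 (SE 0.04, adjusted p = 0.000732).

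PCL2 measured 8.50, 8.46 and 8.37 in REF, 8.33, 8.34 and 8.39 in D12, and 8.52, 8.52 and 8.56 in D126. Its D12 arrays were the lowest and overlapped with REF. PCL2 rose over D12 by 0.18 (SE 0.04, adjusted p = 0.0135) and differed from REF by 0.09 (SE 0.04, adjusted p = 0.158). Without D126 replicate 3 the difference from D12 had an adjusted p of 0.0577, and the alternatives spanned 0.00151 to 0.0749.

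PCL9 is a Pho85 cyclin made at the exit from mitosis under Swi5. It measured 9.33, 9.30 and 9.31 in REF, 9.18, 9.21 and 9.38 in D12, and 9.74, 9.69 and 9.77 in D126. The D126 arrays stood apart from all others, and the REF arrays were nearly equal. PCL9 rose by 0.42 over REF (SE 0.05, adjusted p = 0.000753) and by 0.47 over D12 (SE 0.05, adjusted p = 0.000395).

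**Figure D2:**
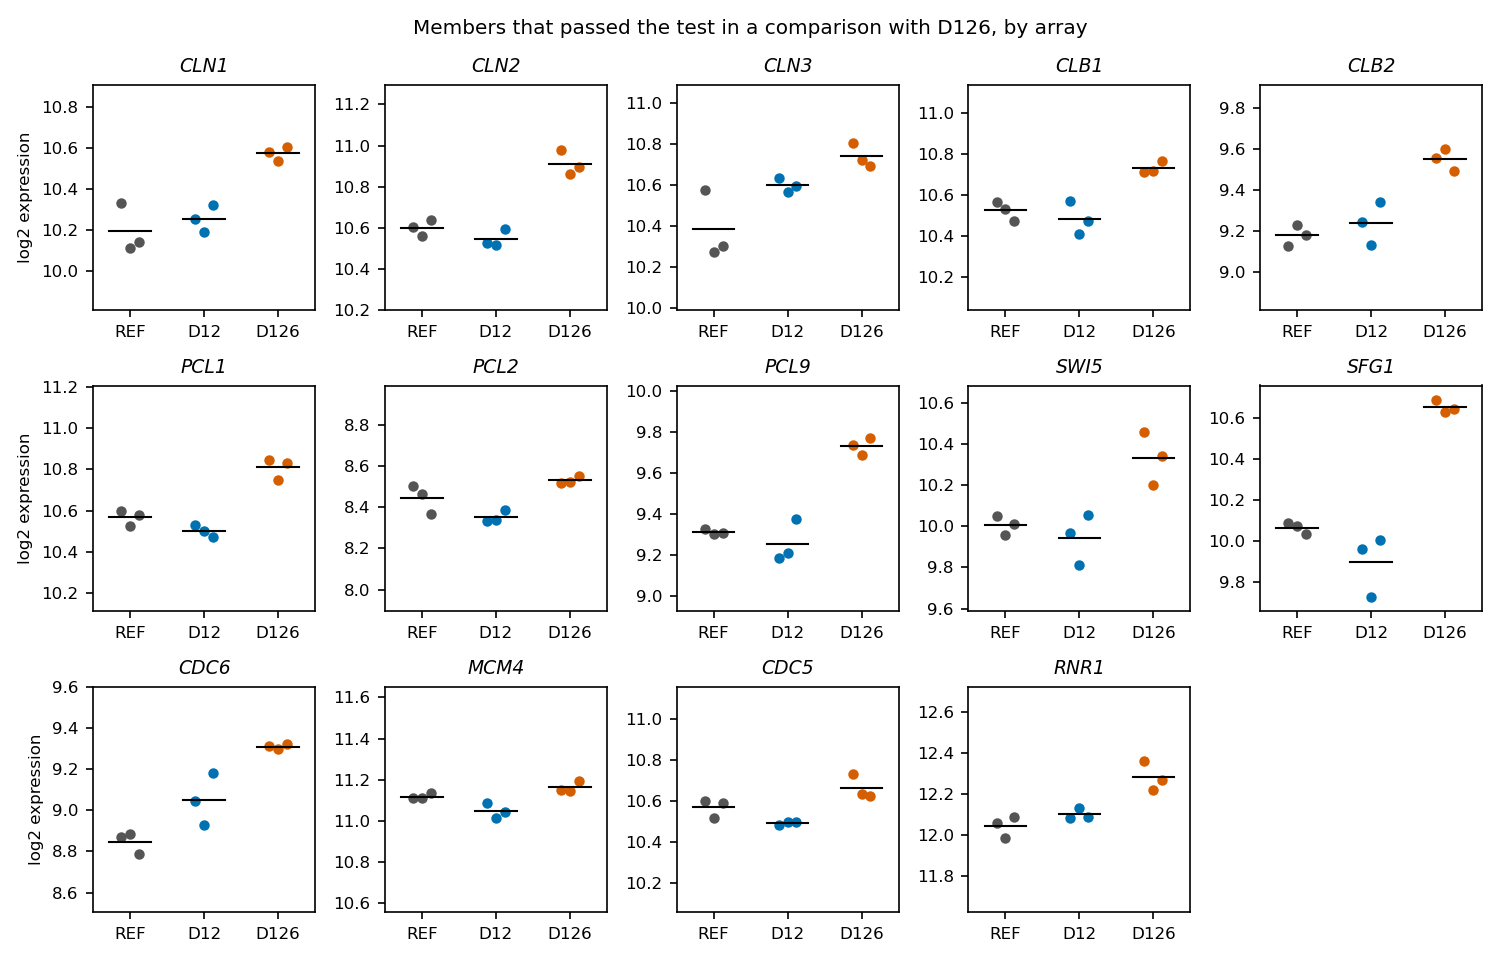
Log2 expression (vertical axis, each panel spanning the same range of log2 units) of the 14 genes called in D126 against REF or against D12, with 1 point per array and a line at the mean of the 3 arrays of a strain. The D126 points lie above all REF and D12 points in all 14 panels, while the REF and D12 points overlap in 10 of them.

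Among the B-type cyclins, the mitotic pair rose and the others did not pass the test. Of the 6 measured, 2 rose in D126 against REF and 2 against D12. That is 33.3% in each, where 8.59% and 7.32% of all genes were called higher. CLB2, the main mitotic cyclin, measured 9.13, 9.23 and 9.18 in REF, 9.25, 9.13 and 9.34 in D12, and 9.56, 9.60 and 9.49 in D126. The lowest D126 array was above the highest of both other strains. CLB2 rose by 0.37 over REF (SE 0.06, adjusted p = 0.00206) and by 0.31 over D12 (SE 0.06, adjusted p = 0.00494).

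CLB1 encodes the paralogous mitotic cyclin, and measured 10.57, 10.53 and 10.48 in REF, 10.57, 10.41 and 10.48 in D12, and 10.71, 10.72 and 10.77 in D126. The D126 arrays lay above all others, while REF and D12 overlapped. CLB1 rose by 0.21 over REF (SE 0.05, adjusted p = 0.0133) and by 0.25 over D12 (SE 0.05, adjusted p = 0.00598). The call against REF was lost without REF replicate 3 (adjusted p = 0.0519) or D126 replicate 3 (0.0554), and its adjusted p ran from 0.000489 to 0.0554 over all alternatives.

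CLB3 and CLB4, which act in S phase and early mitosis, were at nearly the same level in every array: CLB3 between 10.89 and 10.95, and CLB4 between 9.62 and 9.70. Their changes in D126 were -0.0045 and 0.0047 against REF (SE 0.03 each), with 95% intervals of -0.07 to 0.06 and -0.07 to 0.08. CLB5, the main S-phase cyclin, differed by 0.05 (95% interval -0.03 to 0.13, adjusted p = 0.375). CLB6, its paralog, measured 8.83 ± 0.09 in REF, 8.94 ± 0.18 in D12 and 8.98 ± 0.03 in D126 (SD, n = 3), a difference of 0.15 with a wider interval (-0.04 to 0.33, adjusted p = 0.233). All D126 arrays of CLB6 lay above all REF arrays. CLB6 was called against REF with quantile normalization and with array weights, and its adjusted p ran from 0.0256 to 0.516 over all alternatives.

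CLB1 and CLB6 are next to each other on chromosome VII, and CLB2 and CLB5 on chromosome XVI, in the R64 gene table. These were the only neighbouring pairs among the 37 genes. The log2 change of CLB2 from REF to D126 exceeded that of CLB5 by 0.32, and the per-array differences of the 2 genes did not overlap between the strains. An exact two-sided permutation test over the 20 splits gave p = 0.1, the smallest that 3 against 3 arrays allow. This test cannot fall under 0.05 for any pair, so it does not decide whether neighbours changed differently. For CLB1 and CLB6 the difference of changes was 0.06 (exact permutation p = 0.2). From D12 to D126 it was 0.32 for CLB2 and CLB5 and 0.21 for CLB1 and CLB6, each without overlap of the per-array differences (exact permutation p = 0.1 each).

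CDC28, the kinase to which all these Cln and Clb cyclins bind, stood at 11.57 ± 0.02 in REF, 11.58 ± 0.05 in D12 and 11.57 ± 0.07 in D126 (SD, n = 3). The 95% interval of its change from REF to D126 was -0.10 to 0.10. The inhibitor gene SIC1 measured 10.16, 10.13 and 10.08 in REF, 10.06, 10.11 and 10.19 in D12, and 10.32, 10.22 and 10.22 in D126. The D126 arrays were the highest without overlap, but the change of 0.13 (SE 0.05) did not pass the test against REF (adjusted p = 0.0743) or D12 (0.0719). When REF and D126 were fitted alone SIC1 was called against REF, without (adjusted p = 0.0467) and with the replicate number as a block (0.0328). Without D12 replicate 3 it was called against REF (0.0396) and against D12 (0.0301), and the alternatives spanned an adjusted p of 0.0138 to 0.209 against REF and 0.0176 to 0.253 against D12. WHI5 differed by -0.11 from REF (SE 0.07, adjusted p = 0.296), with REF values of 10.02, 10.03 and 10.24 and D126 values of 10.02, 9.96 and 9.98.

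Of the 9 transcription factors, 2 rose and 0 fell, in D126 against REF and against D12 alike. The share that rose was 22.2%, where 8.59% and 7.32% of all genes were called higher. SFG1, a nuclear protein that promotes growth as filaments, had the largest log2 change of the 37 genes in both comparisons. It measured 10.09, 10.07 and 10.04 in REF, 9.96, 9.73 and 10.01 in D12, and 10.69, 10.63 and 10.64 in D126. All D12 arrays lay below all REF arrays, and all D126 arrays above both. SFG1 rose by 0.59 over REF (SE 0.07, adjusted p = 0.000457), a 50.4% higher level, and by 0.76 over D12 (SE 0.07, adjusted p = 0.000167), a 68.8% higher level.

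SWI5, the factor of the exit from mitosis, measured 10.05, 9.96 and 10.01 in REF, 9.97, 9.81 and 10.06 in D12, and 10.46, 10.20 and 10.34 in D126. The D126 arrays lay above all others but were spread over a wider range than those of SFG1, and REF and D12 overlapped. SWI5 rose by 0.33 over REF (SE 0.07, adjusted p = 0.0152) and by 0.39 over D12 (SE 0.07, adjusted p = 0.0072). Against REF the adjusted p was 0.0615 without REF replicate 2 and 0.0513 without D126 replicate 3, and it ran from 0.000793 to 0.0615 over all alternatives. The SWI5 call against REF was also lost with a plain linear model fitted gene by gene and with all non-control probe sets.

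The subunits of SBF and MBF did not pass the test: against REF, SWI4 differed by 0.04 (95% interval -0.14 to 0.22), SWI6 by 0.09 (-0.01 to 0.20) and MBP1 by 0.11 (-0.01 to 0.24). With REF and D126 fitted alone, MBP1 was called against REF (adjusted p = 0.0423), but not with the replicate number as a block (0.0638). MBP1 was called without D12 replicate 3, against REF (adjusted p = 0.0319) and against D12 (0.0273), and SWI6 against D12 without D12 replicate 2 (0.0455). The adjusted p of MBP1 ran from 0.00593 to 0.41 against REF and from 0.0273 to 0.662 against D12 over all alternatives, and that of SWI6 from 0.0455 to 0.309 against D12. The factors of the CLB2 cluster, FKH1, FKH2, NDD1 and MCM1, differed from REF by 0.01, -0.07, 0.05 and -0.03. FKH2 was the only one of the 37 genes whose D126 values (10.34, 10.34 and 10.37) all lay below REF (10.41, 10.41 and 10.45), with an adjusted p of 0.277; against D12 it differed by -0.11 (0.097), and without D12 replicate 1 that difference was called (adjusted p = 0.017, range 0.017 to 0.245).

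In replication licensing, 1 of 8 genes rose in D126 against REF and 2 against D12. CDC6, the loader of the Mcm helicase, measured 8.87, 8.89 and 8.79 in REF, 9.05, 8.93 and 9.18 in D12, and 9.31, 9.30 and 9.32 in D126. The 3 strains did not overlap, with D12 in the middle. CDC6 rose by 0.46 over REF (SE 0.06, adjusted p = 0.000971), a 37.9% higher level, and by 0.26 over D12 (SE 0.06, adjusted p = 0.0154). Without D126 replicate 3 the adjusted p against D12 was 0.0552, within a range of 0.000312 to 0.0657.

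The changes of the helicase subunit genes MCM2 to MCM7 from REF to D126 ran from 0.01 for MCM2 to 0.10 for MCM7 (adjusted p = 0.0739). None was called against REF. Single arrays of MCM6 lay between 10.07 and 10.30. The 95% intervals of these 6 changes reached from -0.11 for MCM5 to 0.18 for MCM7, so a larger increase, such as that of CDC6, lay outside them.

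MCM4 measured 11.11, 11.11 and 11.13 in REF, 11.09, 11.01 and 11.04 in D12, and 11.15, 11.14 and 11.19 in D126. Its D12 arrays were the lowest. MCM4 was called against D12 with a change of 0.12 (SE 0.03, adjusted p = 0.0325), but this call was lost when any 1 array other than REF replicate 3 or D12 replicate 1 was left out, with adjusted p of 0.0513 to 0.121, and the alternatives spanned 0.00326 to 0.206. CDC45, which joins the helicase when origins fire, stayed between 9.98 and 10.12 in all arrays and differed by 0.02 from REF (SE 0.03).

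Among the mitotic regulators, CDC5, the polo kinase, measured 10.60, 10.52 and 10.59 in REF, 10.48, 10.50 and 10.50 in D12, and 10.73, 10.63 and 10.63 in D126. The D12 arrays were the lowest and the D126 arrays the highest, with no overlap between strains. CDC5 rose over D12 by 0.17 (SE 0.04, adjusted p = 0.0156) and differed from REF by 0.09 (SE 0.04, adjusted p = 0.121). CDC20, the activator of the anaphase-promoting complex, stood at 9.61 ± 0.05 in REF and 9.71 ± 0.05 in D126 (SD, n = 3), a difference of 0.10 (adjusted p = 0.107) with no overlap between these strains.

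Of the 3 DNA synthesis genes, RNR1 rose in D126 (33.3%, where 8.59% of all genes rose against REF and 7.32% against D12). It encodes the large subunit of ribonucleotide reductase, which makes deoxyribonucleotides, and measured 12.06, 11.98 and 12.09 in REF, 12.08, 12.13 and 12.09 in D12, and 12.36, 12.22 and 12.27 in D126. The D126 arrays were the highest without overlap. RNR1 rose by 0.24 over REF (SE 0.04, adjusted p = 0.00617) and by 0.18 over D12 (SE 0.04, adjusted p = 0.0204). Leaving out D126 replicate 1 (0.0541) or 3 (0.0574) ended the call against D12, and the alternatives spanned 0.0132 to 0.121. POL1, the catalytic subunit of DNA polymerase alpha, and POL30, the sliding clamp PCNA, each differed from REF by 0.09 (SE 0.04 each, adjusted p = 0.175 and 0.127).

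The same genes can be ordered by the regulators known to time them, as background knowledge of yeast. Of the 4 SBF targets (CLN1, CLN2, PCL1 and PCL2), 3 rose in D126 against REF and the median was 0.28. Of the 6 MBF targets (CLB5, CLB6, RNR1, POL1, POL30 and CDC45), RNR1 rose and the median was 0.09. In the CLB2 cluster (CLB1, CLB2, SWI5, CDC20 and CDC5) 3 of 5 rose and the median was 0.21. Of the 9 genes with Mcm1 sites active between mitosis and G1 (CLN3, SWI4, CDC6 and MCM2 to MCM7), CLN3 and CDC6 rose and the median was 0.05. In the order given, the shares that rose were 75.0%, 16.7%, 60.0% and 22.2%, where 8.59% of all genes were called higher. The differences between these groups were not tested.

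The second comparison set D126 against D12, strains described as differing by the D6-desaturase gene. Whether these strains differed in anything else was not given. In it, 13 of the 37 genes rose (35.1%) and 0 fell, against 7.32% of all genes called higher and 14.7% called lower. The split of all genes depended on scaling: 399 were higher and 801 lower (22.0% in either direction), and with quantile normalization 593 were higher and 630 lower. Under that normalization 16 of the 37 genes rose and 0 fell. The median change of the 37 genes was 0.08, and of all genes -0.02. The D126 values lay above all D12 values for 18 of the 37 genes (48.6%, against 14.7% of all genes) and below them for 0 (against 23.8%). Of the 14 genes called in either comparison with D126, 10 were called in both, CLN3 against REF only, and PCL2, MCM4 and CDC5 against D12 only.

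The third comparison asked whether the D12-desaturase alone went with a difference from REF. Limma called 0 of the 37 genes (smallest adjusted p = 0.77), as it did 0.00% of all genes, and the plain linear model fitted gene by gene gave 0 as well. The D12 arrays were the most scattered, with a median SD over all genes of 0.066, against 0.038 in REF and 0.046 in D126. For the 37 genes it was 0.058, 0.042 and 0.041 in the same order. The lack of a call does not show equal levels. Unadjusted p-values were under 0.05 for 4 of the 37 genes and for 326 of all genes. CDC6 differed by 0.21 (SE 0.06, 95% interval 0.07 to 0.34) and CLN3 by 0.21 (SE 0.07, 95% interval 0.05 to 0.38), both on the higher side. SFG1 differed by -0.17 (95% interval -0.31 to -0.02) and PCL2 by -0.09 (-0.18 to -0.0024). The 3 values of D12 lay above those of REF for 1 gene, CDC6 (2.7% of the 37, against 6.20% of all genes), and below them for SFG1, MCM4 and CDC5 (against 3.96% of all genes). A moderated F-test over the 3 strains called 13 of the 37 genes, against 20.1% of all genes; without D126 replicate 3 it called 7, and with array weights 20.

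**Figure D3:**
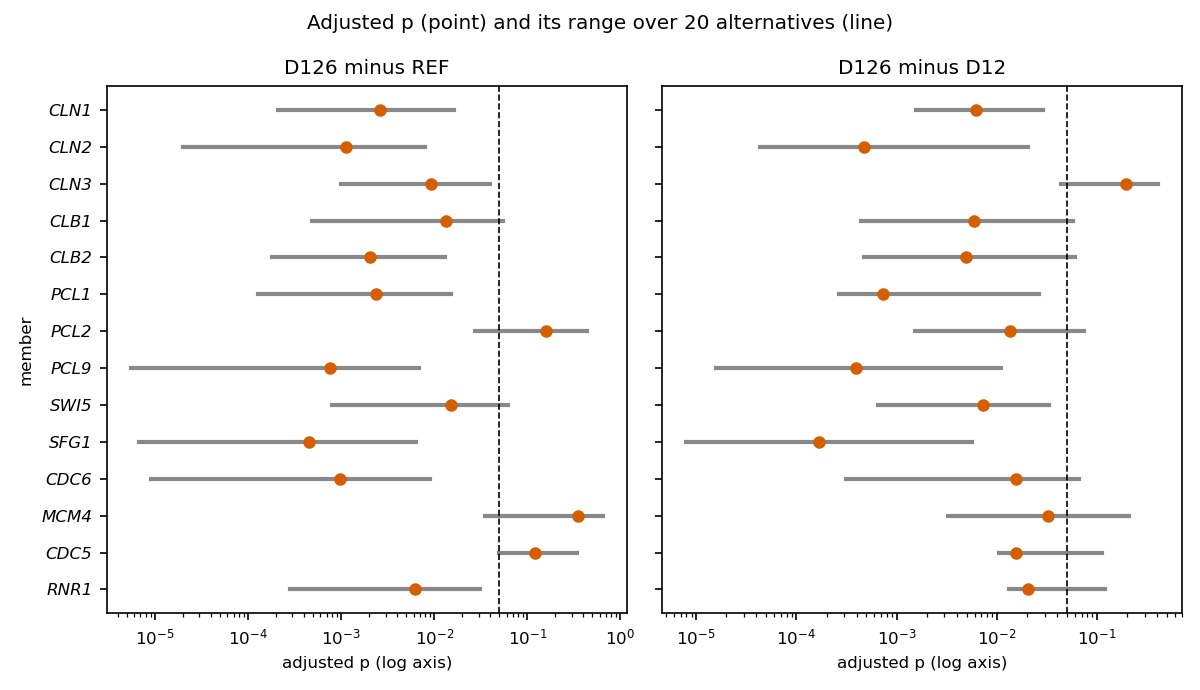
Adjusted p (horizontal log axis) of the 14 called genes in D126 against REF (left) and against D12 (right), as a point for the fit described and a line from the lowest to the highest value over 20 alternative settings. The dashed line is the threshold of 0.05: the lines of 9 of the 11 genes called against REF stay to its left, and those of 6 of the 13 called against D12.

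Other genes of the same pathways were taken from 8 lists by function, which held 119 measured genes. These lists too were chosen with earlier results of these data known. Of these, 20 rose (16.8%) and 16 fell (13.4%) in D126 against REF, where 8.59% of all genes rose and 12.9% fell, and their median change was -0.0002. The share that fell was near that of all genes. Of these 36 calls, 12 were kept under all 20 alternatives. Without REF replicate 2 there were 16 calls (6 higher and 10 lower), without REF replicate 3 there were 21, without D126 replicate 1 there were 24 and without D126 replicate 3 there were 20. With array weights there were 62.

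Regulators of G1 and of the step from mitosis to G1 held the largest rise. Of 16, 6 rose (37.5%) and 2 fell (12.5%), where 8.59% of all genes rose and 12.9% fell. The median was 0.09. YOX1, a repressor of the Mcm1-driven genes at the step from mitosis to G1, rose from 9.75 ± 0.05 to 10.26 ± 0.06 (SD, n = 3; log2 change 0.51, SE 0.05, adjusted p = 0.000212). FAR1, the Cdc28 inhibitor of the pheromone response, rose by 0.27 (adjusted p = 0.0012). RME1, a repressor of meiosis that also activates CLN2, fell from 12.30 ± 0.04 to 11.93 ± 0.09 (adjusted p = 0.00561).

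Ribonucleotide reductase genes moved in opposite directions. RNR1 rose, while RNR2, a small subunit, fell from 14.54 ± 0.02 to 14.27 ± 0.06 (adjusted p = 0.000944), and RNR3, the alternative large subunit that DNA damage induces, fell from 10.52 ± 0.14 to 10.06 ± 0.04 (adjusted p = 0.0022). Of the 26 replication fork and nucleotide genes these belong to, 3 rose and 3 fell, with a median of -0.02. That is 11.5% each way, where 8.59% of all genes rose and 12.9% fell. In origin recognition and firing, 0 of 18 rose and 3 fell (16.7%), with a median of -0.03. In both lists the share that fell was near that of all genes. TAH11, the yeast Cdt1 that works with Cdc6 in loading the helicase, fell by 0.23 on the log2 scale (SE 0.04, adjusted p = 0.0029). PSF1 of the GINS complex fell by 0.17 (adjusted p = 0.00935), and ORC4 of the origin recognition complex fell by 0.13 (adjusted p = 0.0479). The PSF1 call was lost with all non-control probe sets (limma adjusted p = 0.0505). The ORC4 call was lost without any REF or D126 replicate or without D12 replicate 2, and its adjusted p ran from 0.00716 to 0.158. A mean-variance trend in the fit, the plain linear model fitted gene by gene and all non-control probe sets also ended the ORC4 call.

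Histone genes, transcribed in S phase, were on the higher side: 4 of 9 rose, 0 fell, and the median was 0.13. The share that rose was 44.4%, against 8.59% of all genes. HHF1, which was called, and HTA2, which was not, were read by probe sets marked as shared with another gene. In this list 1 histone gene was not measured. HTB2 of histone H2B rose from 13.05 ± 0.07 to 13.38 ± 0.04 (adjusted p = 0.0015), and HHT2 of histone H3 by 0.20 (adjusted p = 0.0333). The HHT2 call was lost without any REF replicate, without D126 replicates 1 or 3 and with the replicate number as a block over all arrays (range 0.000694 to 0.11). The plain linear model fitted gene by gene and all non-control probe sets also ended the HHT2 call. HTZ1 rose by 0.17 (adjusted p = 0.0189). It lost its call without REF replicates 2 or 3, without D126 replicate 3 and with all non-control probe sets (range 0.000611 to 0.0769). Of the 20 genes of the anaphase-promoting complex and spindle checkpoint, 2 rose and 4 fell. The complex subunit genes DOC1, SWM1 and APC9 fell by 0.41, 0.34 and 0.32 (adjusted p = 0.001, 0.00454 and 0.00148).

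Of 14 genes of mitotic exit and the Swe1 kinase, 4 rose (28.6%) and 2 fell (14.3%), where 8.59% of all genes rose and 12.9% fell. HSL1, a bud-neck kinase that promotes Swe1 breakdown, rose by 0.34 (adjusted p = 0.0146). The HSL1 call was lost without REF replicate 2 or D126 replicate 1 and with the plain linear model fitted gene by gene (range 0.000417 to 0.0553). In cohesin, 1 of 8 rose and 1 fell (12.5% each), shares near those of all genes. MCD1 rose by 0.23 (adjusted p = 0.0139) and SCC4 fell by 0.22 (adjusted p = 0.0127). Both calls were lost without REF replicate 2 and with all non-control probe sets (ranges 0.000323 to 0.0609 and 0.00121 to 0.0556). Of Pho85 and its other cyclins, 0 of 8 rose and 1 fell (12.5%), near the share of all genes that fell. PCL10, a cyclin of glycogen control, fell by 0.16 (adjusted p = 0.0218). The PCL10 call was lost without REF replicates 1 or 2, without D126 replicates 1 or 3 and with all non-control probe sets (range 0.000391 to 0.0869).

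**Figure D4:**
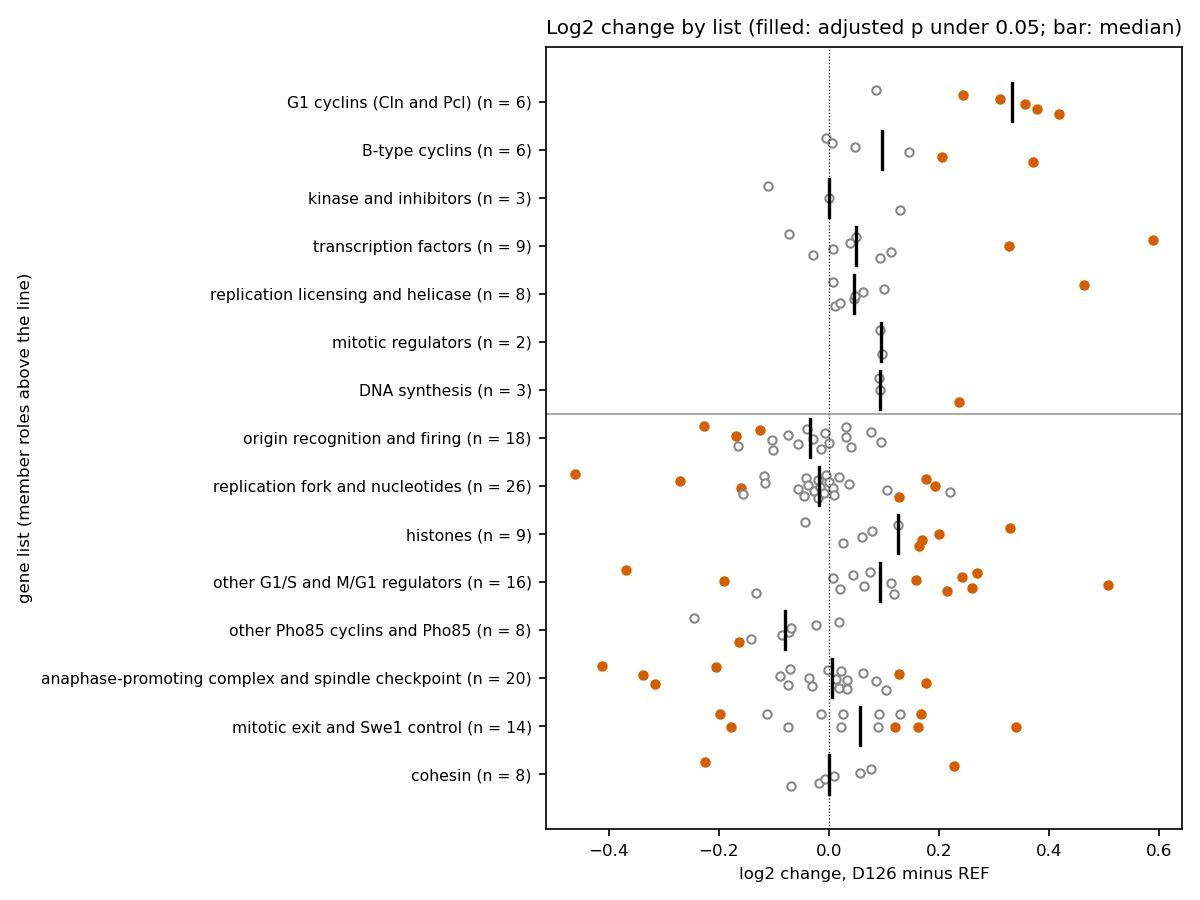
Log2 change from REF to D126 (horizontal axis) of each gene in the 7 roles of the 37 genes (above the line) and in related lists (below it), with 1 point per gene, filled where the adjusted p was under 0.05, and a bar at the median. The G1 cyclin median of 0.33 lies to the right, and the related lists scatter on both sides of 0.

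Markers of mating type and of sporulation were also read in the same arrays. In D126 against REF, 8.59% of all genes rose and 12.9% fell. All 6 markers of MATa cells rose, with a summed level of 14.47 to 14.57 in REF and 14.93 in each D126 array. STE2 lost its call without REF replicates 2 or 3 or D126 replicates 2 or 3 (range 0.000577 to 0.0715). With all non-control probe sets, STE2 and AGA2 (limma adjusted p = 0.0505) lost their calls.

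Of 4 markers of MATalpha cells, MF(ALPHA)1 rose, and the others were not called against REF. STE3 differed from REF by -0.12 (adjusted p = 0.0823, range 0.0121 to 0.262) and SAG1 by -0.16 (0.0946, range 0.0111 to 0.247). Both were called lower with REF and D126 fitted alone and the replicate block (0.046 and 0.0367). Against D12, STE3 was called lower (-0.14, adjusted p = 0.0458). The summed level of the MATalpha markers was 10.87 to 10.91 in REF and 10.73 to 10.84 in D126. MF(ALPHA)1 and MF(ALPHA)2 stood at 6.11 and 5.97 in REF, near the background limit of 5.64. Of 10 sporulation genes 1, SPS4, rose and 1, SPR3, fell. The summed level of the 10 genes was 11.30 to 11.32 in REF and 11.24 to 11.29 in D126. SPS4 rose by 0.57 (adjusted p = 0.00793) and kept its call under all 20 alternatives (range 2.98e-05 to 0.0392). The SPR3 call (adjusted p = 0.0295) was lost without REF replicates 1 or 2, without any D126 replicate and with the replicate number as a block over all arrays (range 0.000119 to 0.104). The plain linear model fitted gene by gene and all non-control probe sets also ended the SPR3 call. By strain mean, the sporulation gene DIT2 lay below the background limit in D126 (5.63) and above it in REF (5.81), and no other marker lay at or below it. The actin control's 3′ probe set exceeded its 5′ probe set by a log2 difference of 0.35 to 0.38 in REF and 0.36 to 0.39 in D126. The part of these markers in the changes of the cell cycle genes was not tested.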

How the data were processed

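Total RNA from 9 glucose-limited chemostat samples, 3 per strain, was hybridised to Affymetrix yeast arrays. Per the submitters' processing notes, RMA and the affy package made the deposited log2 values, with no version stated. RMA draws all arrays to 1 distribution, which hides any change in RNA content per cell. Strain and replicate number came from the sample titles. Of 10928 probe sets, 5498 matched a gene of the R64 table by identifier, and the brightest per gene gave 5449 genes. The background limit of 5.64 is the 95th percentile of probe sets of genes outside that table.

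Strains were compared by limma 3.58.1 (R 4.3.3), with strain as the term over all 9 arrays (6 residual and 3.1 prior degrees of freedom), and adjusted by Benjamini-Hochberg over all genes. The script was tested on simulated data. The number of arrays limits the precision. Same-numbered REF and D126 arrays deviated together (correlations of 0.13 to 0.22), so the replicate number was also fitted as a block, and values are given where a call against REF changed. D12 arrays did not pair with either (-0.34 to -0.02). Arrays of each gene called in any comparison are given in full. In related lists up to 3 called genes with the largest change could be named, and histone genes on shared probe sets were named as such. Some genes of the marker lists were named after their values were seen. The genes and lists were chosen with earlier results of these data known. Promoter motifs were not analysed here. A list of marker genes is not reported here.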

Additional observations from a re-analysis of the deposited data

How the results depend on the processing

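The count of the 37 genes called between D12 and REF was 0 under all 20 alternatives run. Against REF, the 11 calls in D126 became 22 with array weights, and the count ran from 9 to 13 when 1 array was left out. Against D12, the 13 calls became 8 when all non-control probe sets were tested and 6 with the 2 strains alone and the replicate block, and ran from 9 to 14 when 1 array was left out. In that fit CLB1 (adjusted p = 0.058), CLB2 (0.0603), PCL2 (0.0749), CDC6 (0.0657), CDC5 (0.113), RNR1 (0.121) and MCM4 (0.206) lost their call, and MCM4 also did so with the block over all 9 arrays (0.0619). D12 and D126 arrays share only a number, and the cause of that loss was not tested. The F-test count of 13 became 20 with array weights and ran from 7 to 15 without 1 array. Of the 119 related genes, 36 calls became 62 with array weights and 14 with all non-control probe sets, and ran from 16 to 42 without 1 array. With all non-control probe sets, CLB1 and SWI5 lost their call against REF, and PCL2, CDC6, MCM4, CDC5 and RNR1 lost theirs against D12. The causes of the loss with all non-control probe sets and of the gain with array weights were not tested. Over all genes, 1173 calls against REF became 645 without REF replicate 2, 755 without REF replicate 3, 698 without D126 replicate 3, 2615 with array weights and 548 with all non-control probe sets, and 1200 calls against D12 became 683 without D126 replicate 3, 2057 with array weights and 578 with all non-control probe sets. In D126 against REF, 9 of the 11 genes kept their call under all 20 alternatives, and against D12 6 of 13 did. With the replicate block over all 9 arrays the counts were 11, 12 and 32 for REF, D12 and related genes, and it changed no call of the 37 genes against REF. With REF and D126 fitted alone, SIC1 and MBP1 were also called, and adding the block ended the MBP1 call and no other. None of the called changes turned its sign. The planned motif search was not run. No probe signals were analysed here, so changes near the ends of the scale may be compressed, which was not tested.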
